A study of Homo sapiens with 24 samples.

Results

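The HOX cluster genes encode the homeodomain transcription factors that give cells their position along the head-to-tail axis of the embryo. They were taken as every entry of the read count tables that names 1 gene with a symbol made of HOXA, HOXB, HOXC or HOXD and a number, which gave 37 genes of 19692 entries. Of these, 11 belong to the HOXA cluster on chromosome 7, 10 to HOXB on chromosome 17, 7 to HOXC on chromosome 12 and 9 to HOXD on chromosome 2. HOXC4, HOXC5 and a second HOXA9 transcript are counted in 3 further entries that name several genes or loci, and are described apart. Together the 37 genes took 0.25% to 0.501% of all reads, depending on the library.

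The libraries come from a catabolic SLAM-seq experiment on HEK293, an established human embryonic kidney line. Cells that overexpress ZC3H7B, an RNA-binding protein with CCCH zinc fingers, are called ZC3H7B-OE. The other line carries the Flag/HA construct alone and is called control. Both lines received 4-thiouridine (s4U, 100 µM) and doxycycline (1 µg/mL) for 24 h and were then chased with 10 mM uridine for 0, 2, 4 or 6 h, with 3 replicates per line and time, hence 8 groups and 24 poly(A)-selected libraries. s4U built into RNA reads as C after alkylation, so reads with T>C conversions (labelled reads) mark RNA made while s4U was present. No library without doxycycline is analysed here, and an effect of ZC3H7B cannot be told apart from a difference that the lines already had before induction. The labels do not say whether a line is 1 clone, or whether replicates were separate cultures, so p-values measure the spread between these libraries, which may be technical.

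The 4 HOX clusters arose by duplication of an ancestral cluster, and genes with the same number are paralogs at the matching place in each cluster. Genes at the low-numbered end act early and towards the head, while genes at the high-numbered end act later, in the trunk, limbs and urogenital tract. The clusters are kept silent by Polycomb complexes and active by Trithorax complexes, and the set that is active in a cell is passed on to its daughters. HOX proteins bind DNA together with TALE homeodomain partners of the PBX and MEIS families. The clusters also carry microRNA genes, among them miR-196 and miR-10, and HOX mRNAs are known miR-196 targets.

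Depth ran from 1502068 to 3676254 reads per library, of which 830574 to 1579744 were labelled. ZC3H7B itself averaged 329 ± 75.3 CPM in ZC3H7B-OE cells and 270 ± 74.2 CPM in control cells (SD, n = 12 each; log2 difference 0.28, SE 0.08, adjusted p = 0.0035), and this call was lost with the 0 h libraries left out (adjusted p = 0.0976). CPM, the counts per 1e6 reads, were scaled by the trimmed mean of M values (TMM). Of the marker lists, 6 of 8 embryonic kidney, 3 of 4 epithelial, 2 of 4 leukocyte, 1 of 4 neuronal and 0 of 4 fibroblast genes passed the filter on low counts. The leukocyte genes were CD68 (85.5 CPM in ZC3H7B-OE cells, 80.7 in control cells) and CD79A (3.68 CPM in ZC3H7B-OE cells, 2.02 in control cells), with PTPRC and CD3E at 0 in all libraries, and the neuronal gene was INA (164.5 CPM in ZC3H7B-OE cells, 124 in control cells, adjusted p = 0.000153). The part of these in the HOX differences was not tested. The third control replicate at 0 h stood apart, with a read in 11032 entries, against 12005 to 13201 in the other libraries, and correlated with the other libraries of its group at 0.912 on average, against 0.939 to 0.98 elsewhere. A bulk library does not tell fewer cells with an mRNA from less of it per cell.

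All 4 clusters were expressed in both lines. Of the 37 genes, 33 passed the filter on low counts. The other 4 were HOXB1 with 4 reads summed over the 12 ZC3H7B-OE libraries and 0 over the 12 control libraries, HOXC12 with 3 in ZC3H7B-OE and 1 in control libraries, HOXD1 with 15 in ZC3H7B-OE and 18 in control libraries, and HOXD12 with 27 in ZC3H7B-OE and 29 in control libraries. HOXB1 and HOXD1 lie at the head end of their clusters, HOXC12 and HOXD12 near the tail end. Summed over its single-gene entries, the HOXB cluster had 2398 ± 196 CPM in ZC3H7B-OE cells and 1961 ± 177 CPM in control cells (SD, n = 12 each). HOXA had 967 ± 90.5 CPM in ZC3H7B-OE cells and 776 ± 77.3 CPM in control cells. HOXC had 573 ± 108 CPM in ZC3H7B-OE cells and 456 ± 100 CPM in control cells. HOXD had 440 ± 58.2 CPM in ZC3H7B-OE cells and 460 ± 105 CPM in control cells. These SDs include the spread between chase times, and no p is given for a sum over chosen genes.

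**Figure D1:**
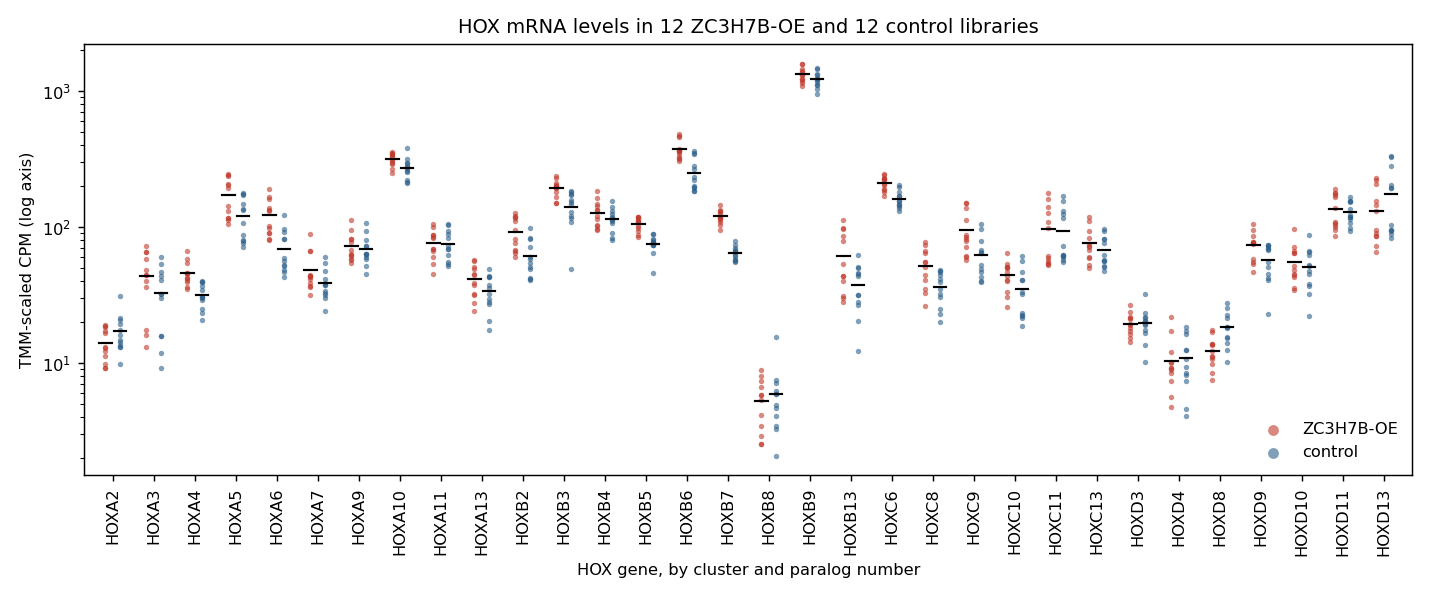
TMM-scaled CPM (log axis) of 32 of the 33 HOX genes that passed the filter, by cluster and paralog number; each point is 1 of 12 ZC3H7B-OE (red) or 12 control (blue) libraries over the 4 chase times, and the bars are means. HOXB9 lies highest in every library. HOXB6 and HOXA10 have the next highest means in both lines, and HOXB8 and HOXD4 the lowest. Entries that name several genes are not drawn.

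Levels of different genes were compared per kilobase of annotated 3′ UTR, because the length over which reads were counted is not given in the sources used here. On that scale HOXB9, a posterior HOX gene, was highest of the single-gene entries, with 756 CPM per kb in ZC3H7B-OE cells and 694 CPM per kb in control cells. Entries that name several genes were given no length and are not in this order. Of these, the second HOXA9 entry had 514 CPM in ZC3H7B-OE cells and 455 CPM in control cells, where HOXB6 had 374 and 251 CPM. In ZC3H7B-OE cells HOXB6 followed with 563 CPM per kb, HOXA6 with 459, HOXD11 with 301 and HOXC6 with 243. In control cells HOXB6 had 377 CPM per kb, HOXA6 262, HOXD11 285 and HOXC6 186. Divided by the length of all exons instead, HOXB9 remained first with 511 CPM per kb in ZC3H7B-OE cells and 469 CPM per kb in control cells, followed by HOXB6 with 144 and 96.4. HOXD11 then had 64.0 CPM per kb in ZC3H7B-OE cells, below HOXA5 with 100.0, so the order after HOXB6 depends on the length used. Among the least abundant of those tested were HOXB8 (5.43 CPM per kb of 3′ UTR in ZC3H7B-OE cells, 6.06 in control cells) and HOXA13 (10.8 in ZC3H7B-OE cells, 8.84 in control cells).

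Of the 33 tested genes, 18 were higher and 2 were lower in ZC3H7B-OE cells than in control cells over the mean of the 4 chase times (edgeR quasi-likelihood test, adjusted p under 0.05 over all 10038 entries tested). That is 54.5% higher and 6.06% lower, beside 20.3% higher and 25.4% lower among all entries. The median log2 difference was 0.29 over the HOX genes and 0.01 over all entries. By cluster, 7 of 11 tested HOXA genes, 6 of 9 HOXB genes and 4 of 6 HOXC genes were higher and none of these was lower, whereas 1 of 7 HOXD genes was higher and 2 were lower. The median log2 difference was 0.29 for HOXA, 0.48 for HOXB, 0.40 for HOXC and -0.03 for HOXD; whether the clusters differ from each other was not tested.

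**Figure D2:**
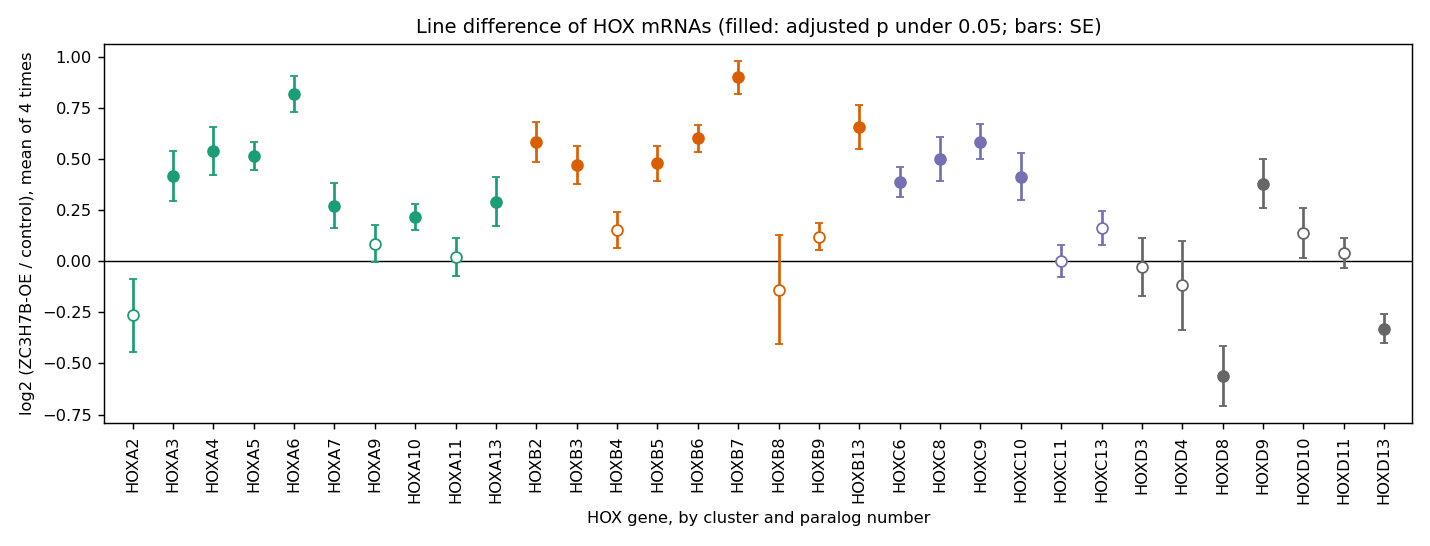
log2 difference ZC3H7B-OE over control, mean of the 4 chase times, for 32 of the 33 tested HOX genes by cluster (colours) and paralog number; bars are SE of the edgeR fit over 24 libraries and filled points have an adjusted p under 0.05. HOXB7 (0.90) and HOXA6 (0.82) are highest, HOXD8 (-0.56) lowest, and the open points lie between -0.27 and 0.16.

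HOXB7, a central HOXB gene, differed most. In ZC3H7B-OE cells HOXB7 had 125, 95.5 and 108 CPM at 0 h, 119, 104 and 116 CPM at 2 h, 113, 146 and 129 CPM at 4 h, and 132, 132 and 116 CPM at 6 h. In control cells HOXB7 had 57.0, 56.5 and 70.0 CPM at 0 h, 65.0, 55.1 and 57.8 CPM at 2 h, 66.2, 62.5 and 74.1 CPM at 4 h, and 78.8, 67.6 and 61.2 CPM at 6 h. Every ZC3H7B-OE library lay above every control library at all 4 times, and the level of neither line changed past the threshold between 0 and 6 h. The log2 difference was 0.90 (SE 0.08, 95% interval 0.73 to 1.07, adjusted p = 5.12e-11), a fold of 1.86. It passed the test at each time, between 0.85 and 0.94, and no call was lost when any 1 library was left out.

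HOXA6, the gene before HOXA7 in the HOXA cluster, came next. In ZC3H7B-OE cells HOXA6 had 138, 190.4 and 161 CPM at 0 h, 134, 165 and 130.2 CPM at 2 h, 90.7, 81.7 and 80.5 CPM at 4 h, and 101, 97.9 and 90.5 CPM at 6 h. In control cells HOXA6 had 96.9, 123 and 59.0 CPM at 0 h, 81.3, 82.1 and 91.8 CPM at 2 h, 56.4, 52.0 and 52.3 CPM at 4 h, and 48.2, 42.7 and 46.4 CPM at 6 h. No ZC3H7B-OE library fell among the control libraries of its time, although the lines came close at 0 h, with 138 CPM in the lowest ZC3H7B-OE library and 123 CPM in the highest control library. The log2 difference was 0.82 (SE 0.09, 95% interval 0.63 to 1.01, adjusted p = 5.07e-09), and 1.08 at 6 h (adjusted p = 0.000103). The call at 2 h was lost without ZC3H7B-OE replicate 2 of that time (log2 0.63, adjusted p = 0.0563).

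The RefSeq promoter window of HOXA6 (250 bases before to 50 after the annotated start) is shown as that of the member with the largest difference for which the table holds a window, with capitals marking CCAAT, the NF-Y box, on either strand.
HOXA6 promoter, GRCh38.p14 chr7:27147725-27148024, minus strand: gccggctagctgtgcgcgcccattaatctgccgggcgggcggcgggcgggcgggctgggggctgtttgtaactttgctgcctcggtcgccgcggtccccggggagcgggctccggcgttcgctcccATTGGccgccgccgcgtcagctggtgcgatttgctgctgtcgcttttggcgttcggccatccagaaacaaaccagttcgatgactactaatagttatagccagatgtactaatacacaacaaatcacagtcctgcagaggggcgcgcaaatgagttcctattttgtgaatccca
It holds 1 CCAAT match, on the opposite strand, and no TATAAA. Of 25 windows of 18 HOX genes, 16 hold CCAAT (on either strand) and 5 hold TATAAA, beside 34.6% and 11.5% of 35116 windows in the table. TGATTNAT, the letters of a composite site of HOX and PBX proteins, lies in 2 of the HOX windows and in 2.8% of all windows. These are matches of letters, and the lines' levels were not related to them by any test.

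HOXB6, the neighbour of HOXB7 and the second most abundant member per kb, was higher in ZC3H7B-OE cells too. In ZC3H7B-OE cells HOXB6 had 465, 457 and 485 CPM at 0 h, 360.5, 373 and 363 CPM at 2 h, 334, 306 and 317 CPM at 4 h, and 351, 363 and 319 CPM at 6 h. In control cells HOXB6 had 363, 342 and 348 CPM at 0 h, 281, 266 and 194 CPM at 2 h, 199, 233 and 196 CPM at 4 h, and 221, 184 and 182 CPM at 6 h. The groups did not overlap at any time, and both lines were lower at 6 h than at 0 h. The log2 difference was 0.60 (SE 0.06, 95% interval 0.46 to 0.74, adjusted p = 2.82e-09), with the largest value at 6 h (0.81, adjusted p = 4.14e-05), and leaving out any 1 library lost none of its calls.

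HOXA5, known for roles in lung and neck development in the mouse, was higher over the chase times by 0.51 on the log2 scale (SE 0.07, adjusted p = 2.39e-07). In ZC3H7B-OE cells HOXA5 had 116, 117 and 141 CPM at 0 h, 106, 113 and 131 CPM at 2 h, 207, 194 and 203 CPM at 4 h, and 238, 241 and 243 CPM at 6 h. In control cells HOXA5 had 107, 76.7 and 87.6 CPM at 0 h, 78.3, 80.0 and 71.3 CPM at 2 h, 148, 137 and 134 CPM at 4 h, and 177, 176 and 173 CPM at 6 h. The ZC3H7B-OE libraries lay above the control libraries at every time, while the level of both lines was higher at 4 and 6 h than at 0 and 2 h. HOXA5 passed the test at all 4 times. Its call at 0 h was lost without ZC3H7B-OE replicate 3 (log2 0.37, adjusted p = 0.094) or control replicate 2 (0.36, 0.0798) of that time, and its call at 6 h without ZC3H7B-OE replicate 3 (0.44, 0.0598), control replicate 1 (0.46, 0.0571) or control replicate 3 (0.44, 0.0673).

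HOXB5, beside HOXB6 in the cluster, differed by 0.48 (SE 0.08, adjusted p = 2.04e-05). In ZC3H7B-OE cells HOXB5 had 119, 101 and 115 CPM at 0 h, 92.7, 83.8 and 87.3 CPM at 2 h, 109.5, 98.4 and 111 CPM at 4 h, and 118, 111 and 119 CPM at 6 h. In control cells HOXB5 had 88.5, 77.2 and 46.1 CPM at 0 h, 77.2, 73.5 and 74.0 CPM at 2 h, 73.1, 64.4 and 88.2 CPM at 4 h, and 81.5, 79.8 and 76.7 CPM at 6 h. No library of one line fell within the other line's range at the same time. HOXB5 was close to level over the chase in both lines.

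HOXB13, the last gene of the HOXB cluster and a marker of prostate, differed by 0.66 (SE 0.11, 95% interval 0.43 to 0.88, adjusted p = 6.14e-06). In ZC3H7B-OE cells HOXB13 had 112, 98.9 and 96.2 CPM at 0 h, 85.2, 78.4 and 53.1 CPM at 2 h, 43.7, 40.5 and 43.5 CPM at 4 h, and 30.1, 28.3 and 31.1 CPM at 6 h. In control cells HOXB13 had 62.0, 46.2 and 43.3 CPM at 0 h, 50.1, 45.4 and 50.8 CPM at 2 h, 31.5, 28.3 and 31.7 CPM at 4 h, and 20.4, 12.3 and 26.6 CPM at 6 h. Control replicates 2 and 3 of 6 h were 12.3 and 26.6 CPM, so the spread of the control line there was wide beside its level, yet the lines did not overlap. The difference was largest at 0 h, at 1.00 (adjusted p = 0.000431).

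HOXC9, a posterior gene of the HOXC cluster, differed by 0.58 (SE 0.08, 95% interval 0.41 to 0.76, adjusted p = 6.68e-07). In ZC3H7B-OE cells HOXC9 had 151, 149 and 138 CPM at 0 h, 78.9, 84.9 and 82.2 CPM at 2 h, 71.5, 112 and 87.0 CPM at 4 h, and 60.2, 60.9 and 57.1 CPM at 6 h. In control cells HOXC9 had 96.9, 78.8 and 106 CPM at 0 h, 66.0, 67.5 and 64.8 CPM at 2 h, 46.6, 43.1 and 52.7 CPM at 4 h, and 39.7, 49.4 and 40.4 CPM at 6 h. The lines were apart at all 4 times, most of all at 4 h (0.92, adjusted p = 0.000184), where the ZC3H7B-OE replicates were themselves spread.

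The other 11 genes called higher overlapped between the lines at 1 or more times. How many of all entries kept the lines apart at every time was not counted, so the genes above have no such share beside them. HOXB2, which acts in hindbrain patterning, averaged 92.0 ± 25.1 CPM in ZC3H7B-OE cells and 60.9 ± 18.6 CPM in control cells (SD, n = 12 each over the 4 times; log2 0.58, adjusted p = 1.33e-05). HOXA4 averaged 46.1 ± 9.46 CPM in ZC3H7B-OE cells and 31.7 ± 6.48 CPM in control cells (log2 0.54, adjusted p = 0.00033). HOXC8 averaged 52.0 ± 16.6 CPM in ZC3H7B-OE cells and 36.2 ± 10.0 CPM in control cells (log2 0.50, adjusted p = 0.000267). HOXB3, which neighbours HOXB2 and HOXB4, averaged 192 ± 27.5 CPM in ZC3H7B-OE cells and 141 ± 38.9 CPM in control cells (log2 0.47, adjusted p = 0.000108). HOXA3, needed for thymus and parathyroid development in the mouse, averaged 43.4 ± 20.1 CPM in ZC3H7B-OE cells and 32.6 ± 16.8 CPM in control cells (log2 0.42, adjusted p = 0.00526). HOXC10 averaged 44.4 ± 10.8 CPM in ZC3H7B-OE cells and 35.1 ± 14.4 CPM in control cells (log2 0.41, adjusted p = 0.00383). HOXC6, the most abundant HOXC gene per kb, averaged 210 ± 24.5 CPM in ZC3H7B-OE cells and 161 ± 22.6 CPM in control cells (log2 0.39, adjusted p = 4.7e-05). HOXD9, the HOXD gene called higher, averaged 73.7 ± 17.6 CPM in ZC3H7B-OE cells and 56.9 ± 16.6 CPM in control cells (log2 0.38, adjusted p = 0.0105). HOXA10, known in the uterus and in blood, averaged 313 ± 34.5 CPM in ZC3H7B-OE cells and 272 ± 47.6 CPM in control cells (log2 0.21, adjusted p = 0.00621).

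HOXA13, which acts in limb and genital development, averaged 41.3 ± 11.1 CPM in ZC3H7B-OE cells and 33.9 ± 9.73 CPM in control cells (log2 0.29, adjusted p = 0.0466). HOXA7 averaged 48.5 ± 16.8 CPM in ZC3H7B-OE cells and 39.1 ± 10.3 CPM in control cells (log2 0.27, adjusted p = 0.041). Both calls sat at the threshold: that of HOXA7 was lost on leaving out any of 13 single libraries (adjusted p up to 0.0987) and that of HOXA13 on leaving out any of 14 (up to 0.136), while no other HOX call over the mean of the times was lost this way. With 1 time left out, HOXD9 lost its call without 0 h (0.32, adjusted p = 0.0656), HOXA3 without 2 h (0.32, 0.0642), and HOXC10 (0.28, 0.0944) and HOXA10 (0.18, 0.0541) without 4 h.

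Both genes that were lower in ZC3H7B-OE cells belong to the HOXD cluster. HOXD13, the last gene of that cluster and a digit patterning gene, differed by -0.33 (SE 0.07, 95% interval -0.48 to -0.18, adjusted p = 0.000205). In ZC3H7B-OE cells HOXD13 had 89.6, 72.7 and 65.5 CPM at 0 h, 85.8, 95.1 and 86.3 CPM at 2 h, 155, 146 and 130.5 CPM at 4 h, and 206, 228 and 220.2 CPM at 6 h. In control cells HOXD13 had 94.4, 83.2 and 93.1 CPM at 0 h, 95.2, 88.6 and 104 CPM at 2 h, 204, 192 and 192 CPM at 4 h, and 332, 278 and 325 CPM at 6 h. The lines overlapped at 0 and 2 h and were apart at 4 and 6 h, where every ZC3H7B-OE library lay below every control library. The difference was -0.52 at 6 h (adjusted p = 0.00651) and -0.45 at 4 h (adjusted p = 0.0175). The call at 4 h was lost without ZC3H7B-OE replicate 3 (-0.35, 0.141), control replicate 1 (-0.42, 0.0771) or control replicate 3 (-0.43, 0.0506) of that time.

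HOXD8, a central HOXD gene with few reads, differed by -0.56 (SE 0.15, 95% interval -0.87 to -0.25, adjusted p = 0.00197). In ZC3H7B-OE cells HOXD8 had 10.7, 17.0 and 17.4 CPM at 0 h, 13.8, 7.52 and 11.2 CPM at 2 h, 9.93, 13.7 and 13.5 CPM at 4 h, and 12.2, 11.0 and 8.43 CPM at 6 h. In control cells HOXD8 had 21.6, 18.5 and 18.4 CPM at 0 h, 15.3, 15.7 and 10.3 CPM at 2 h, 18.3, 12.4 and 14.1 CPM at 4 h, and 25.5, 27.7 and 22.6 CPM at 6 h. The lines were apart at 0 and 6 h and overlapped at 2 and 4 h. The difference was -1.24 at 6 h (adjusted p = 0.00195), and the mean over 0, 2 and 4 h alone was -0.34 (adjusted p = 0.123).

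The promoter windows of these HOXD genes are shown as those of the members that were lower, with capitals marking CCAAT and TATAAA on either strand.
HOXD13 promoter, GRCh38.p14 chr2:176092471-176092770, plus strand: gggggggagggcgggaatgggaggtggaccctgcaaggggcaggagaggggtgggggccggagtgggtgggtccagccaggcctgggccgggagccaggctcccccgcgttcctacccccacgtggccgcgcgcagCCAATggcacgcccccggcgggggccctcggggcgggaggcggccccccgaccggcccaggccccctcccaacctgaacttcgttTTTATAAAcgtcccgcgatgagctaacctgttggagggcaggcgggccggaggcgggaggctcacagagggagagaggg
HOXD8 promoter, GRCh38.p14 chr2:176129455-176129754, plus strand: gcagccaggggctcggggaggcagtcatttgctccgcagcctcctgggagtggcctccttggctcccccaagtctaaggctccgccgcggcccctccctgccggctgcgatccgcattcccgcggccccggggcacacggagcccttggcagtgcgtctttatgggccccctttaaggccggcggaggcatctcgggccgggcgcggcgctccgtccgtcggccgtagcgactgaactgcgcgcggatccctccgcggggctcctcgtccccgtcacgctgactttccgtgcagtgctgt
The HOXD13 window holds 1 CCAAT and 2 overlapping TATAAA matches (1 per strand), and the HOXD8 window holds none of these letters. The G and C content of the windows is 74.0% for HOXD13, 71.7% for HOXD8 and 60.3% for HOXA6.

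The 13 other tested genes did not pass the test over the mean of the times. HOXB9, the most abundant, averaged 1319 ± 160 CPM in ZC3H7B-OE cells and 1211 ± 159 CPM in control cells (SD, n = 12 each; log2 0.12, 95% interval -0.02 to 0.26, adjusted p = 0.145). HOXB4 averaged 128 ± 27.9 CPM in ZC3H7B-OE cells and 114 ± 22.3 CPM in control cells, and HOXA9 72.8 ± 17.6 CPM in ZC3H7B-OE cells and 69.2 ± 17.4 CPM in control cells. HOXD11 averaged 135 ± 38.9 CPM in ZC3H7B-OE cells and 128 ± 24.4 CPM in control cells. Some genes had nearly the same mean in both lines: HOXA11 had 75.8 ± 18.3 CPM in ZC3H7B-OE cells and 75.5 ± 18.9 CPM in control cells, HOXC11 had 96.0 ± 46.3 CPM in ZC3H7B-OE cells and 93.9 ± 42.4 CPM in control cells, and HOXD3 had 19.6 ± 3.61 CPM in ZC3H7B-OE cells and 19.7 ± 5.45 CPM in control cells. The 95% interval of the log2 difference was -0.17 to 0.22 for HOXA11 and -0.17 to 0.17 for HOXC11. HOXC13 (76.1 ± 21.7 CPM in ZC3H7B-OE cells, 67.5 ± 17.4 CPM in control cells) and HOXD10 (55.6 ± 17.8 CPM in ZC3H7B-OE cells, 50.8 ± 18.0 CPM in control cells) had positive differences of 0.16 and 0.14. HOXA2 (14.0 ± 3.81 CPM in ZC3H7B-OE cells, 17.1 ± 5.66 CPM in control cells), HOXD4 (10.4 ± 4.82 CPM in ZC3H7B-OE cells, 10.8 ± 4.72 CPM in control cells) and HOXB8 (5.31 ± 2.19 CPM in ZC3H7B-OE cells, 5.93 ± 3.48 CPM in control cells) had negative differences of -0.27, -0.12 and -0.14, with SEs of 0.18, 0.22 and 0.27.

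Those 3 further entries were tested in the same fit. The entry naming HOXC5 had 11.9 ± 4.57 CPM in ZC3H7B-OE cells and 7.47 ± 3.07 CPM in control cells (log2 0.65, adjusted p = 0.00906), and the one naming HOXC4 had 102 ± 11.6 CPM in ZC3H7B-OE cells and 110 ± 15.4 CPM in control cells (log2 -0.10, adjusted p = 0.311). The second HOXA9 entry, which names HOXA9 with RP1-170O19.20, had 514 ± 90.8 CPM in ZC3H7B-OE cells and 455 ± 60.3 CPM in control cells (log2 0.17, adjusted p = 0.0206). It held 15547 reads over the ZC3H7B-OE libraries and 12932 over the control libraries, against 2046 and 1846 in the single-gene HOXA9 entry. The values given under HOXA9 alone thus rest on the smaller of these entries. Reads of neighbouring and paralogous HOX genes can be split between entries, and whether counting used strand is not given, so antisense transcripts within the clusters cannot be told from their HOX partners.

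At single times, 10 HOX genes were higher and 0 lower at 0 h (11.7% and 19.5% of all entries), 5 higher and 0 lower at 2 h (2.19% and 7.26%), 9 higher and 1 lower at 4 h (6.79% and 10.9%), and 7 higher and 2 lower at 6 h (6.54% and 9.23%). HOXA5, HOXA6, HOXB6 and HOXB7 were called at every time. HOXC9 and HOXB5 were called at 0 and 4 h, HOXB5 also at 6 h, HOXB3 at 0 and 6 h, HOXB2 at 2 and 4 h, HOXB13, HOXA4 and HOXB9 at 0 h, HOXC6 and HOXC10 at 4 h, and HOXC8 at 6 h. HOXD13 was lower at 4 and 6 h and HOXD8 at 6 h. Single libraries decided several of these calls. HOXA4 at 0 h was lost without ZC3H7B-OE replicate 1 (adjusted p = 0.0501), and HOXB9 at 0 h without ZC3H7B-OE replicate 1 or 3 or control replicate 3 (up to 0.0788). HOXC10 at 4 h was lost without ZC3H7B-OE replicate 3 or control replicate 1 (up to 0.158), HOXC6 at 4 h without replicate 2 of either line (up to 0.0726), and HOXC8 at 6 h without ZC3H7B-OE replicate 2 or control replicate 3 (up to 0.0686). HOXB5 was lost without any of 4 libraries at 4 h (up to 0.166) and of 4 at 6 h (up to 0.0813), HOXB3 at 6 h without any of 5 (up to 0.164), and HOXB2 at 2 h without any of 12 (up to 0.204). A fit on the 6 libraries of a time alone called 2 HOX genes at 0 h (HOXB7 and HOXB13), beside 791 of 8170 entries, and 18 at 6 h, beside 3286 of 9259 entries. That fit has its own filter, scaling and estimate of spread, and the counts over all entries moved with those of the HOX genes. A test of whether the line difference changed along the chase called 0 of 33 HOX genes, beside 174 entries or 1.73% of all (edgeR F test). At an unadjusted p under 0.05 it also called 0 HOX genes. DESeq2 called 0 HOX genes too, beside 724 of 16669 entries, but gave no adjusted p for 6 HOX genes.

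Between the chase times HOX mRNAs moved both ways in both lines. Depth went with chase time: libraries of 0 and 2 h had at most 2053311 reads, those of 4 and 6 h at least 2480380. A difference tied to depth or handling thus cannot be told apart from the chase. Between 6 and 0 h, 7 genes rose (21.2%) and 10 fell (30.3%) in ZC3H7B-OE cells, beside 32.8% and 30.6% of all entries, and 8 rose (24.2%) and 10 fell (30.3%) in control cells, beside 30.7% and 29.9%. The shares that fell are near those of all entries and the shares that rose are below them, a difference that was not tested. HOXC genes were mostly among those that fell (4 of 6 in each line), with HOXC8 the one that rose.

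HOXA3 rose most. In ZC3H7B-OE cells HOXA3 had 13.1, 17.4 and 16.2 CPM at 0 h, 44.4, 36.0 and 48.0 CPM at 2 h, 58.6, 40.1 and 44.2 CPM at 4 h, and 65.0, 65.7 and 72.2 CPM at 6 h. In control cells HOXA3 had 11.8, 15.8 and 9.22 CPM at 0 h, 15.9, 30.3 and 32.4 CPM at 2 h, 32.1, 40.8 and 43.5 CPM at 4 h, and 53.3, 59.9 and 46.9 CPM at 6 h. Within each line the 6 h libraries lay above all 0 h libraries, by 2.11 on the log2 scale in ZC3H7B-OE cells (SE 0.24, adjusted p = 5.06e-09) and 2.08 in control cells (SE 0.26, adjusted p = 2.29e-08). HOXD13, whose values are given above, rose by 1.52 in ZC3H7B-OE cells (adjusted p = 3.03e-11) and 1.79 in control cells (adjusted p = 9.92e-13). In ZC3H7B-OE cells HOXC8 rose by 1.11, HOXA5 by 0.95, HOXD10 by 0.92, HOXB2 by 0.67 and HOXB3 by 0.45. In control cells HOXC8 rose by 0.64, HOXA5 by 0.95, HOXD10 by 0.99, HOXB2 by 0.63 and HOXB3 by 0.62. The HOXC8 call in control cells (adjusted p = 0.0128) was lost without control replicate 1 of 0 h or replicate 2 of 6 h (up to 0.116). In control cells the HOXB2 call was lost without replicate 2 of 0 h or replicate 1 of 6 h (up to 0.0776) and the HOXB3 call without replicate 2 of 6 h (0.121). In ZC3H7B-OE cells the HOXB3 call was lost without replicate 1 or 3 of 0 h or replicate 1 or 2 of 6 h (up to 0.113). HOXD9 was called in control cells (0.63, adjusted p = 0.031), lost without any of 9 libraries (up to 0.187), and had 0.51 in ZC3H7B-OE cells (0.0599).

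Among those that fell, HOXB13 fell by 1.77 in ZC3H7B-OE cells (adjusted p = 7.4e-09) and by 1.35 in control cells (adjusted p = 3.95e-06). In ZC3H7B-OE cells HOXC11 fell by 1.57, HOXC9 fell by 1.29, HOXC13 fell by 1.00, HOXA7 fell by 0.98, HOXA6 fell by 0.76, HOXC10 fell by 0.59, HOXA9 fell by 0.59 and HOXB6 fell by 0.44. In control cells HOXC11 fell by 1.33, HOXC9 fell by 1.12, HOXC13 fell by 0.76, HOXA7 fell by 0.70, HOXA6 fell by 1.04, HOXC10 fell by 1.02, HOXA9 fell by 0.83 and HOXB6 fell by 0.84. HOXD11 fell by 0.61 in ZC3H7B-OE cells (adjusted p = 0.000496) and had -0.33 in control cells (0.0558), and HOXA11 fell by 0.56 in control cells (0.00866) and had -0.25 in ZC3H7B-OE cells (0.23). The HOXC10 call in ZC3H7B-OE cells was lost without replicate 1 of 0 h or replicate 2 of 6 h (adjusted p up to 0.109), and the HOXA7 call in control cells without replicate 2 of 0 h (0.0573). None of these changes was shown to differ between the lines.

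**Figure D3:**
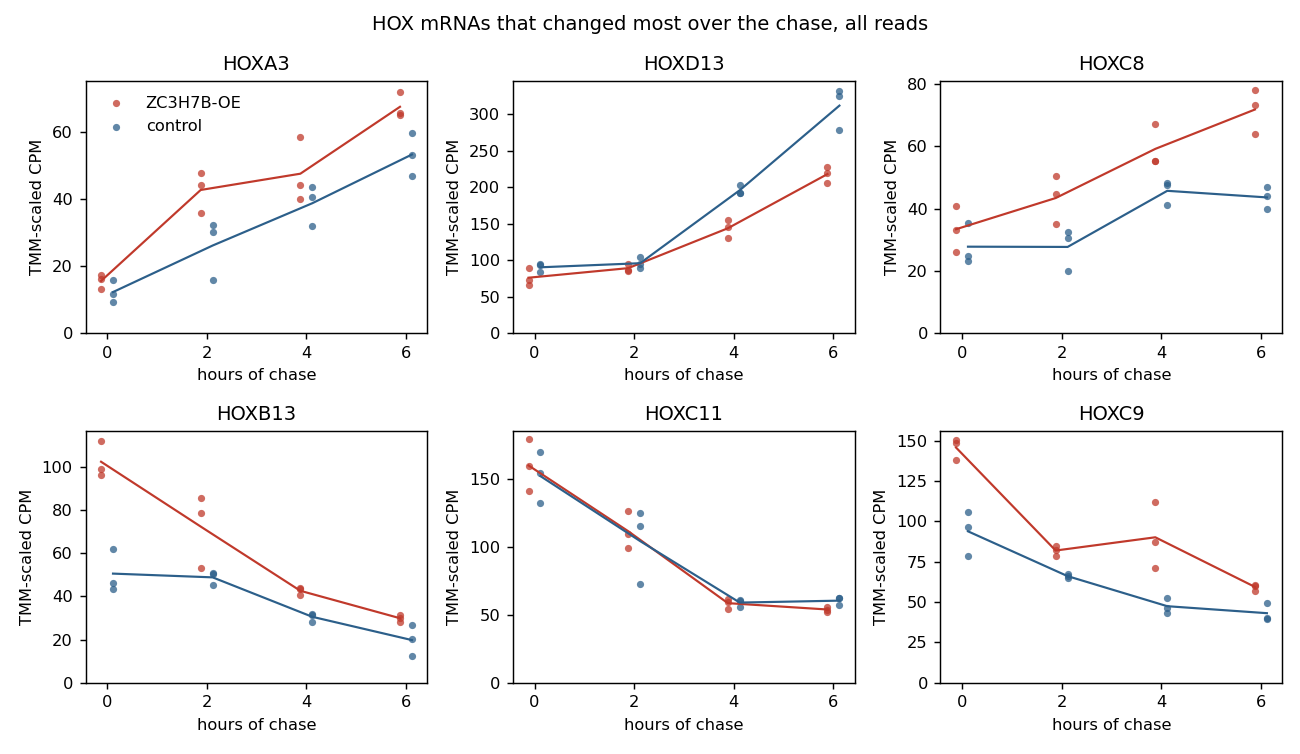
TMM-scaled CPM of 6 HOX genes at 0, 2, 4 and 6 h of chase; points are single libraries (3 per line and time), lines join the means, ZC3H7B-OE in red and control in blue. HOXA3, HOXD13 and HOXC8 climb, HOXB13, HOXC11 and HOXC9 decline, and in HOXD13 the control mean is above at every time, with the libraries of the lines apart at 4 and 6 h.

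Labelled reads show how the RNA made during the pulse was lost. Summed over the 37 genes, labelled reads were 85.7 ± 0.66%, 77.7 ± 1.21%, 47.3 ± 1.08% and 26.2 ± 0.677% of HOX reads at 0, 2, 4 and 6 h in ZC3H7B-OE cells, and 84.9 ± 0.386%, 79.2 ± 2.15%, 44.9 ± 1.23% and 22.4 ± 1.16% in control cells (SD, n = 3 each). Over all reads of a library the share averaged 74.8%, 71.8%, 45.5% and 29.6% at those times in ZC3H7B-OE cells and 76.7%, 75.7%, 47.7% and 29.9% in control cells. Taken per entry, the median share of the 10038 tested entries at 0 h was 86.1% in ZC3H7B-OE cells and 87.6% in control cells. That of the 33 tested HOX genes was 89.5% and 87.2%. At 6 h the medians of all tested entries were 26.3% and 27.8%, and those of the HOX genes 22.2% and 20.1%. The HOXB cluster kept the largest labelled share at 6 h, 32.3 ± 1.61% in ZC3H7B-OE cells and 25.9 ± 1.12% in control cells, and HOXA the smallest, 15.2 ± 0.487% and 15.1 ± 0.686%. HOXB9 makes up most HOXB reads.

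The slope of labelled reads over chase time, scaled to all reads of a library, was tested for the 32 HOX genes with enough labelled reads (HOXA2 did not have them). Labelled reads fell for 31 of 32 in each line, beside 72.3% of 8763 entries in ZC3H7B-OE cells and 75.5% in control cells, and HOXA3 was the gene not called. Over 2 to 6 h alone all 32 fell in each line. Of 8468 entries, 6848 were then called in either direction in ZC3H7B-OE cells and 6960 in control cells. The HOXA3 slope was then -0.31 in ZC3H7B-OE cells (edgeR, adjusted p = 9.14e-05) and -0.30 in control cells (adjusted p = 0.000657). Over 0 to 6 h the median slope was -0.35 log2 units per h in ZC3H7B-OE cells and -0.36 in control cells, against -0.24 and -0.26 over all entries. Among the steepest losses were those of HOXA7 with -0.69 (SE 0.06) in ZC3H7B-OE cells and -0.58 (SE 0.06) in control cells, HOXA6 with -0.57 (0.07) and -0.73 (0.08), HOXA11 with -0.64 (0.05) and -0.63 (0.05), and HOXC11 with -0.61 (0.05) and -0.63 (0.05). For HOXA7 a 2-fold loss thus took 1.45 h in ZC3H7B-OE cells and 1.72 h in control cells. Slowest by this slope among those called was HOXD10, at 5.29 h in ZC3H7B-OE cells and 5.75 h in control cells. HOXD13 came next, at 4.70 h in ZC3H7B-OE cells and 5.32 h in control cells. HOXB9 took 3.83 h in ZC3H7B-OE cells and 3.70 h in control cells. By labelled share HOXD13 was not slow: its 6 h shares, 14.5% in ZC3H7B-OE cells and 12.4% in control cells, lay below the HOX medians. Those of HOXD10, 24.8% and 24.0%, lay above them. A share also depends on unlabelled reads, and the levels of both genes rose over the chase. Leaving out control replicate 3 of 0 h ended the call of HOXB8 in control cells (slope -0.16, adjusted p = 0.166, against -0.28 with it). These times include any label added after the wash and are no decay rates of a single transcript.

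Scaled to the labelled reads of each library instead, which removes the loss shared by all genes and takes the median slope of all entries to about 0 (-0.0048 in ZC3H7B-OE cells and -0.0194 in control cells), 14 HOX genes fell and 1 rose in ZC3H7B-OE cells and 17 fell in control cells. Of all 8490 entries on that scale, 2513 were called in either direction in ZC3H7B-OE cells and 3145 in control cells. The one that rose was HOXA3, with 0.18 (adjusted p = 0.0204). Loss faster than that of the average labelled read was thus called for fewer of the 32 genes than loss itself.

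**Figure D4:**
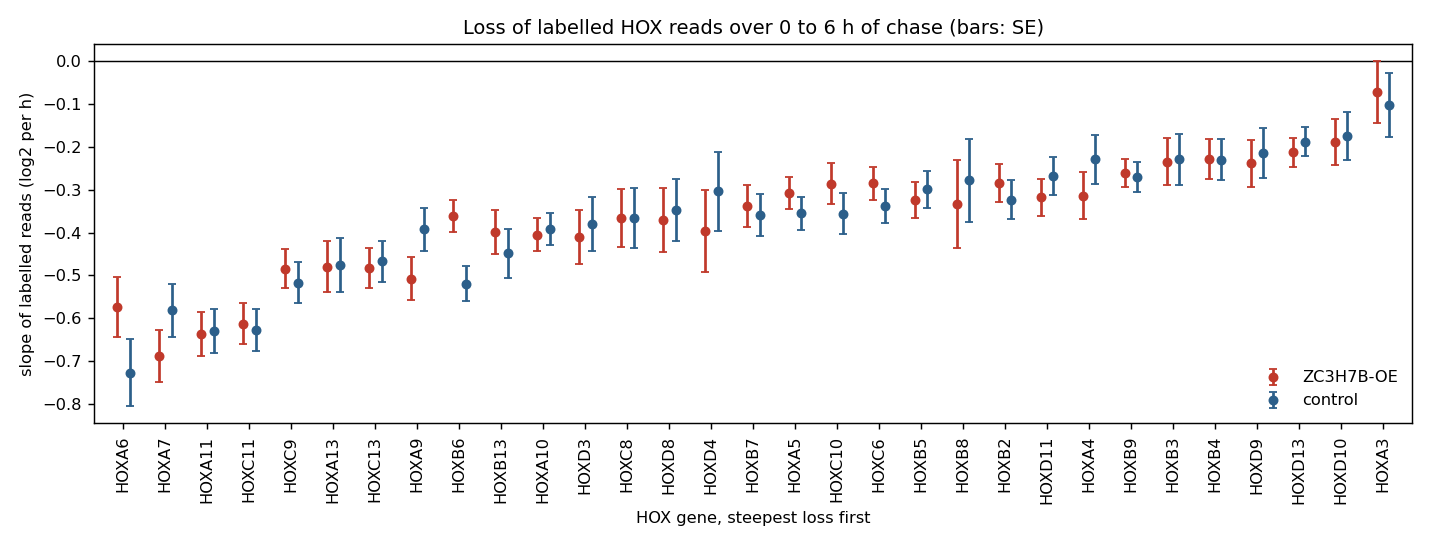
Slope of labelled reads over 0 to 6 h of chase (log2 per h, scaled to all reads) for 31 of the 32 tested HOX genes, steepest first; points are estimates and bars SE of the edgeR fit, ZC3H7B-OE in red left of control in blue. HOXA6, HOXA7, HOXA11 and HOXC11 are at the steep end, HOXA3 alone has bars near 0, and HOXB6 is less steep in ZC3H7B-OE cells than in control cells.

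The lines were not shown to differ in label loss. No HOX gene and none of 8763 entries (0%) passed the test of the slope difference, and at an unadjusted p under 0.05 it was HOXB6 among the HOX genes. Its slope was -0.36 (SE 0.04) in ZC3H7B-OE cells and -0.52 (SE 0.04) in control cells, a difference of 0.16 per h (95% interval 0.04 to 0.27, adjusted p = 0.811). Over 2 to 6 h only, the HOXB6 difference was 0.24 and passed (edgeR, adjusted p = 0.0236), as did 63 of 8468 entries in all. For HOXA6 the difference was 0.15 (95% interval -0.07 to 0.37) and for HOXA7 -0.11 (-0.30 to 0.08).

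The share of labelled reads in each gene can also be compared between the lines at a single time, as log2 odds of labelled against unlabelled reads. At 6 h 3 of 31 tested HOX genes had higher odds in ZC3H7B-OE cells and 0 had lower ones, beside 4.52% and 3.48% of 7951 entries. All 3 lie in the HOXB cluster. At 4 h 1 was higher and 1 lower, beside 0.327% and 4.23% of entries. The median difference over all entries was -0.16 at 4 h and -0.03 at 6 h.

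HOXB9 gave the most precise value. At 6 h HOXB9 reads were 38.1, 38.6 and 38.5% labelled in ZC3H7B-OE cells, against 28.9, 27.5 and 27.5% in control cells. The groups lay far apart next to their spread, with log2 odds 0.68 higher in ZC3H7B-OE cells (SE 0.10, adjusted p = 6.87e-07). At 4 h HOXB9 reads were 62.2, 61.6 and 63.4% labelled in ZC3H7B-OE cells, against 53.1, 56.3 and 56.9% in control cells (log2 odds 0.42, SE 0.10, adjusted p = 0.0043). Without control replicate 1 that difference was 0.35 (adjusted p = 0.0729), and at 0 and 2 h the lines overlapped.

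For HOXB6, reads at 6 h were 17.9, 25.7 and 24.9% labelled in ZC3H7B-OE cells, against 14.8, 12.0 and 14.1% in control cells (log2 odds 0.89, SE 0.18, adjusted p = 0.000509). The lowest ZC3H7B-OE library was above the highest control library. HOXB6 at 4 h had 44.0, 41.8 and 41.6% labelled in ZC3H7B-OE cells, against 31.5, 36.8 and 36.8% in control cells (0.46, adjusted p = 0.117). For HOXB13, reads at 6 h were 54.5, 65.0 and 65.9% labelled in ZC3H7B-OE cells, against 36.7, 31.4 and 30.1% in control cells (log2 odds 1.73, SE 0.44, adjusted p = 0.00575). At 4 h the HOXB13 shares overlapped between the lines (0.08, adjusted p = 0.958), and without control replicate 3 of 6 h the call was lost (1.61, adjusted p = 0.0552). HOXB13 thus kept the largest labelled share of the tested HOX genes at 6 h in ZC3H7B-OE cells while its level fell.

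HOXA9 went the other way. At 4 h HOXA9 reads were 18.6, 17.8 and 17.8% labelled in ZC3H7B-OE cells, against 31.3, 41.4 and 40.5% in control cells (log2 odds -1.44, SE 0.32, adjusted p = 0.00228). The lines did not overlap. The second HOXA9 entry had -0.57 at 4 h (adjusted p = 0.004). At 6 h HOXA9 had 7.25, 14.5 and 9.73% labelled in ZC3H7B-OE cells, against 15.2, 15.0 and 18.5% in control cells (-0.72, adjusted p = 0.249).

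HOXA2, which specifies the second pharyngeal arch, stood apart from the other HOX genes in its label. At 0 h, after 24 h of s4U, 2 of 71 HOXA2 reads were labelled in ZC3H7B-OE cells (2.82%, exact 95% interval 0.343 to 9.81%) and 1 of 86 in control cells (1.16%, 0.0294 to 6.31%). The medians over the 33 tested HOX genes were 89.5% in ZC3H7B-OE cells and 87.2% in control cells. HOXA2 reads were labelled at 18.4% (10.5 to 29%) in ZC3H7B-OE cells and 11.8% (6.05 to 20.2%) in control cells at 2 h, and at 9.63% (5.23 to 15.9%) and 1.96% (0.406 to 5.62%) at 6 h. The intervals cover counting error only. The next lowest tested genes at 0 h were HOXA9 (53.9%), HOXC8 (62.8%), HOXB7 (64.2%) and HOXA7 (66.0%) in ZC3H7B-OE cells, and HOXA9 (54.3%), HOXC8 (59.0%), HOXB6 (64.9%) and HOXB7 (65.9%) in control cells.

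**Figure D5:**
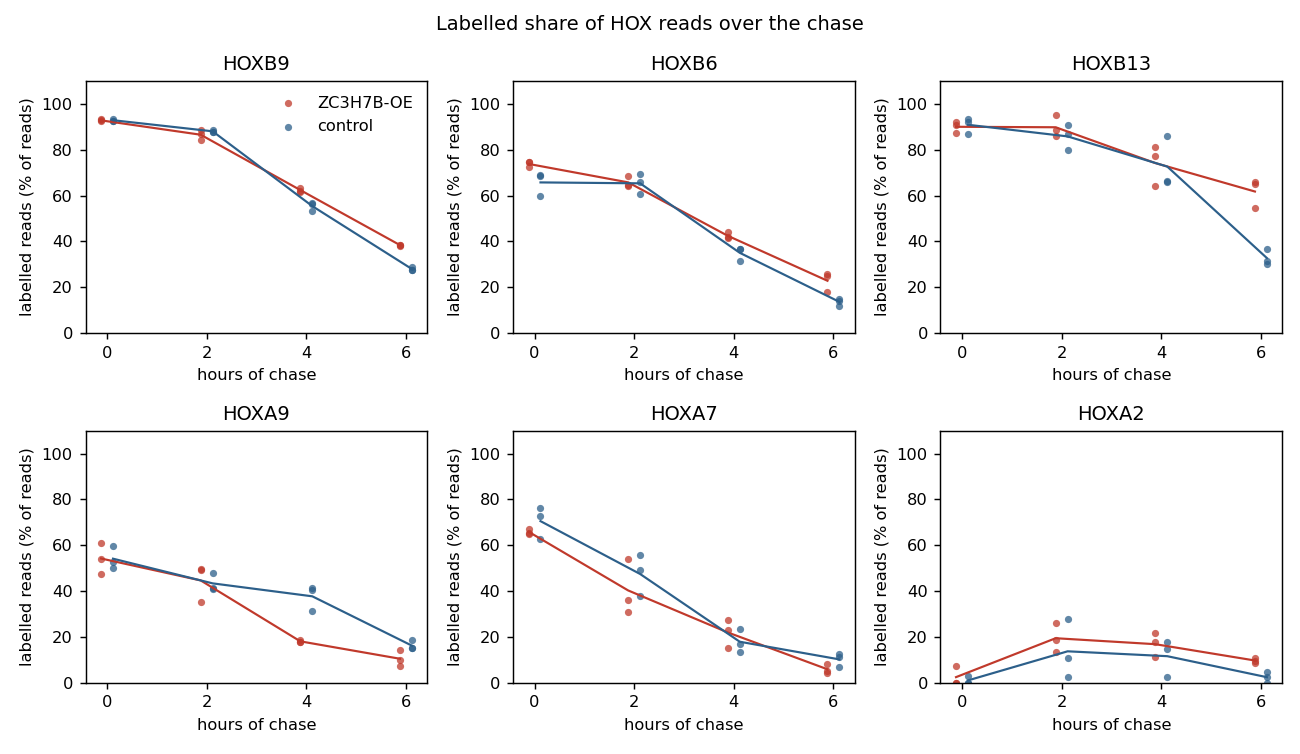
Labelled reads as a percentage of all reads of a gene at 0, 2, 4 and 6 h of chase for 6 HOX genes; points are libraries (3 per line and time), lines join the means, ZC3H7B-OE in red and control in blue. The lines separate at 6 h in HOXB9, HOXB6 and HOXB13 with ZC3H7B-OE above, and at 4 h in HOXA9 with ZC3H7B-OE below, while HOXA2 stays under 30% throughout.

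Mature microRNAs were not measured. The RefSeq sequences of 3 that are encoded in the HOX clusters are shown with the seed (bases 2 to 8) in capitals. HOX mRNAs with miR-196 seed matches are among the members that were higher and among those not called. Matches to miR-10a were not looked for. miR-196a, which has genes in the HOXB and HOXC clusters, and miR-196b from the HOXA cluster share a seed, and miR-10a from the HOXB cluster has another.
hsa-miR-196a-5p: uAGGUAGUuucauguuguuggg
hsa-miR-196b-5p: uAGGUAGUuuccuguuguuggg
hsa-miR-10a-5p: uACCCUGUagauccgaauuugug
The letters ACTACCT, which pair with the miR-196 seed, were looked for on the transcribed strand of annotated 3′ UTRs (GRCh38). They were found in 9 of the 37 HOX genes and in 7.17% of 19146 genes. HOXA7 has 4 such sites, HOXA9 and HOXC8 have 2 each, and HOXA5, HOXB1, HOXB6, HOXB7 and HOXB13 are among those with 1. Sites of members with large line differences and of HOXA7 are shown with the match in capitals.
HOXB7, GRCh38 chr17:48607615-48607636, minus strand: caacactgaaaaaatACTACCT
HOXB6, GRCh38 chr17:48595935-48595956, minus strand: ctggaaggagcacatACTACCT
HOXB13, GRCh38 chr17:48725511-48725532, minus strand: tgggccgcggccgccACTACCT
HOXA5, GRCh38 chr7:27141388-27141409, minus strand: gatatttttattcaaACTACCT
HOXC8 site 1, GRCh38 chr12:54011494-54011515, plus strand: acactcacaactctaACTACCT
HOXC8 site 2, GRCh38 chr12:54012230-54012251, plus strand: ataaatctttaacatACTACCT
HOXA7 site 1, GRCh38 chr7:27154601-27154622, minus strand: tggcgcgtccaaaatACTACCT
HOXA7 site 2, GRCh38 chr7:27154564-27154585, minus strand: tcgaggcacccccaaACTACCT
HOXA7 site 3, GRCh38 chr7:27154449-27154470, minus strand: aaagtgaatctcactACTACCT
HOXA7 site 4, GRCh38 chr7:27154431-27154452, minus strand: acctactcccctaaaACTACCT
The HOXB7 and HOXB6 mRNAs, with 1 site each, and the HOXA6 mRNA, with none, were all among the largest line differences, and HOXA7 with 4 sites was near the threshold. HOXA9, with 2 sites that are not shown, had a log2 line difference of 0.08 in its single-gene entry (edgeR, adjusted p = 0.465). The second HOXA9 entry, which holds more reads, was called higher in ZC3H7B-OE cells, as given above. Whether sites go with line differences was not tested. A match is no measured target.

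Genes that act with or on the HOX clusters were described from 4 lists, to be read beside the 20.3% higher and 25.4% lower among all entries. Of 9 TALE partners 5 were tested, of which 2 were higher and 0 lower in ZC3H7B-OE cells; MEIS1 (0.176 CPM in ZC3H7B-OE cells, 0 CPM in control cells) did not pass the filter. Of 28 Polycomb genes 22 were tested, of which 4 were higher and 8 lower, with a median log2 difference of -0.10. Of 22 Trithorax genes and HOX activators 21 were tested, of which 8 were higher and 4 lower, with a median of 0.04. Of 14 upstream regulators 11 were tested, of which 3 were higher and 2 lower, with a median of -0.12.

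The smallest adjusted p among them was that of PCGF5, a subunit of a variant Polycomb repressive complex that ubiquitinates histone H2A. PCGF5 averaged 134 ± 56.0 CPM in ZC3H7B-OE cells and 313 ± 90.9 CPM in control cells (SD, n = 12 each; log2 -1.32, SE 0.10, adjusted p = 2.65e-11). BMI1, a core subunit of canonical Polycomb repressive complex 1, averaged 165 ± 98.0 CPM in ZC3H7B-OE cells and 246 ± 116 CPM in control cells (-0.70, adjusted p = 6.72e-06). SUZ12, a subunit of the complex that methylates histone H3 at lysine 27, averaged 170 ± 118 CPM in ZC3H7B-OE cells and 258 ± 197 CPM in control cells (-0.59, adjusted p = 1.24e-06). ALDH1A2, which makes retinoic acid, averaged 283 ± 69.9 CPM in ZC3H7B-OE cells and 395 ± 111 CPM in control cells (-0.46, adjusted p = 9.84e-08). EZH2, the catalytic partner of SUZ12, had a difference of -0.16 (adjusted p = 0.339). KMT2A, the methyltransferase that keeps HOX genes active in blood, had -0.43 (adjusted p = 0.0361), a call lost on leaving out any of 9 libraries (up to 0.11). All tested genes named here had negative differences. On the same lists 2 TALE, 4 Polycomb, 8 Trithorax and activator and 3 upstream genes were higher, beside 0, 8, 4 and 2 lower. Whether any of these differences bear on the HOX levels was not tested.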

How the data were processed

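The authors deposited 2 tables of raw read counts (whole numbers) for the 24 libraries: all reads of each entry, and its labelled reads, those carrying T>C conversions. Per the submitters' processing notes fastp and the build GRCh37 were used; aligner, conversion threshold, counting rule and use of strand are not given there or in the labels. The kit was directional, per the labels' protocols.

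All-read counts were fitted with edgeR 4.0.16 in R 4.3.3 (robust quasi-likelihood, TMM, filterByExpr with a minimum count of 10, a mean for each of 8 groups), and p-values were adjusted by Benjamini-Hochberg over all 10038 entries. Labelled counts were fitted with a slope per line, scaled like the all-read counts, over 8763 entries. Log2 odds of labelled against unlabelled reads were fitted with 2 columns per library and the library as a block, over 7951 entries. DESeq2 1.42.0 was an alternative. The fits were tested on simulated data. Replicates differed beyond sampling noise (chi-square per degree of freedom 2.28 to 30.4). PCR reads carry no molecular identifiers, so exact 95% intervals cover counting error only. Replicate numbers did not pair the lines (deviations of same-numbered libraries correlated between -0.117 and 0.214 over 12 pairs), so no block was used.

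Members, lists and tests were chosen with earlier results of these data known. Every HOX gene past the filter was named except 1 whose values are not reported here, though totals and counts hold it; of the partners, the 4 with the smallest adjusted p, MEIS1, EZH2 and KMT2A were named. RefSeq (GRCh38.p14) gave promoters and microRNAs, and the GRCh38 annotation gave 3′ UTRs; since the counts rest on another build, gene coordinates are not given beyond those of printed sequences.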

Additional observations from a re-analysis of the deposited data

Results flagged for a closer look

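The labelled against unlabelled odds of 4 HOX genes differed between the lines by the test of that difference itself. At 6 h 3 of 31 tested HOX genes were higher and 0 lower, beside 4.52% and 3.48% of 7951 entries. At 4 h 1 was higher and 1 lower, beside 0.327% and 4.23% of entries. The log2 odds differed at 6 h by 0.89 for HOXB6, 0.68 for HOXB9 and 1.73 for HOXB13, and at 4 h by 0.42 for HOXB9 and -1.44 for HOXA9 (ZC3H7B-OE minus control, edgeR). The HOXB9 call at 4 h was lost without control replicate 1 of that time (edgeR, adjusted p = 0.0729). That of HOXB13 at 6 h was lost without control replicate 3 of that time (edgeR, adjusted p = 0.0552). Labelled reads of HOXB13 at 6 h were 61.5% of 286 reads in ZC3H7B-OE cells and 32.4% of 188 in control cells.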

How the results depend on the processing

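The 20 HOX calls over the mean of the times were 20 with RLE scaling, 20 without shared entries, 18 without a filter, 19 with DESeq2 and 20 with a replicate block. Of all entries, 4594 of 10038 were called in the main fit. In the order above the counts were 4567 of 10038, 4492 of 9735, 4668 of 16669, 4655 of 16669 and 4533 of 10038. Of 2248 single-gene recomputations of that difference 54 lost a call and 0 calls changed sign. Leaving out 1 library gave 18 to 20 calls over the times, 8 to 12 at 0 h, 3 to 8 at 2 h, 7 to 12 at 4 h, 6 to 13 at 6 h, 15 to 20 for the chase in ZC3H7B-OE cells and 16 to 19 in control cells, 31 to 31 for label loss in ZC3H7B-OE cells and 30 to 31 in control cells, 0 to 0 for the slope difference and the interaction, and 1 to 2 (4 h) and 2 to 3 (6 h) for the labelled odds. At 2 h the lowest count was 3 without ZC3H7B-OE replicate 2 of 2 h, beside 575 of 10526 entries. The highest was 8 without control replicate 3 of 0 h, beside 1671 of 10526 entries. The odds at 4 h gave 1 without control replicate 1, beside 225 of 8019 entries. The count at 2 h was 8 with DESeq2, beside 1102 of 16669 entries. With the 6 libraries of a time alone it was 2 at 0 h, beside 791 of 8170 entries, and 18 at 6 h, beside 3286 of 9259. The odds at 4 h then gave 4, beside 950 of 6922 entries. The slope difference over 2 to 6 h gave 1 call, HOXB6, beside 63 of 8468 entries.

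With library sizes of labelled reads, 15 slopes were called in ZC3H7B-OE cells and 17 in control cells, beside 2513 and 3145 of 8490 entries. The sign then turned in ZC3H7B-OE cells for HOXB3 (0.0079), HOXB4 (0.013), HOXD13 (0.024), HOXD10 (0.051), HOXD9 (0.0017) and HOXA3 (0.18), and in control cells for HOXB3 (0.020), HOXB4 (0.019), HOXD13 (0.052), HOXD10 (0.070), HOXD9 (0.028) and HOXA4 (0.012). This scale removes the loss shared by all labelled reads.

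With the replicate block, calls were 11 at 0 h, 4 at 2 h, 10 at 4 h, 9 at 6 h, 17 and 18 for the chase in ZC3H7B-OE and control cells, 31 and 31 for label loss and 0 for the slope difference and interaction; the pairing check found r over 0.1 in 1 of 12 pairs, and 3 of 12 ZC3H7B-OE libraries correlated best with their own number. DESeq2 gave no adjusted p for 2 HOX genes over the mean, 4 at single times and 6 in the interaction. Depth limits HOXB1, HOXC12, HOXD1 and HOXD12, which cannot be compared.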
